A study of Mus musculus with 2 samples.

Results

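E2f1 and Bambi are 2 of the 50 genes with probes on a 2-colour array of small RNAs, and in both of them the antibody-captured RNA gave a higher signal after oxygen and glucose deprivation while the signal of the RNA left behind differed little. They were selected for exactly that arrangement of signals, so the IP, Sup, IP/Sup and total values below describe the selection and are not evidence for it. The members are all spots of the E2f1 probe A_51_P120636, which carries the transcript accession NM_007891, and of the Bambi probe A_51_P248819, which carries NM_026505. Each probe has 10 spots on each array, against 1 spot for each of the 14400 small-RNA probes.

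The study used BV-2 cells, an immortalised mouse microglial line. The OGD/R array came from cells moved to DMEM without glucose or serum for 2 h at 37 °C in an anaerobic chamber with 5% CO2 and 95% N2, and then returned to regular medium and normal oxygen. The control array came from BV-2 cells without the deprivation, and both groups were grown in alpha-MEM with foetal bovine serum in 5% CO2 at 37 °C. The sources used here do not state the length of the reoxygenation, the number of cultures behind each array or the RNA modification that the antibody recognised. Modified RNA eluted from the beads (IP) was labelled with Cy5, and the RNA recovered from the supernatant as unmodified (Sup) with Cy3. There was 1 array per group, so no value below has a replicate check, no test between the conditions was made, and all SDs are over repeat spots of 1 array and hold technical scatter only.

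E2f1 is a transcription factor that the retinoblastoma protein holds inactive and that, once released, switches on genes for entry into S phase and DNA replication. It can also activate genes of apoptosis. Bambi is a transmembrane pseudoreceptor, built like a type I receptor of the TGF-beta family but without the kinase domain, and it dampens TGF-beta and BMP signalling and can strengthen Wnt signalling. In an experiment of this kind, the balance of captured to uncaptured RNA is read as the balance of modified to unmodified transcript. Whether intact messenger RNA or fragments of it bound these probes was not tested.

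The IP signal of E2f1 was higher after OGD/R. On the OGD/R array it ran from 5966 to 6490 intensity units over the 9 retained spots, with a median of 6142, and on the control array from 2462 to 2857 over 10 spots, with a median of 2711. These are signals that the scanner software had background-subtracted and dye-normalized, not yet scaled between arrays. Every OGD/R spot lay above every control spot. After scaling each array by the 75th percentile of its IP signals, the log2 difference of OGD/R minus control was 1.34, with an SD over spots of 0.09, which is a 2.52-fold higher IP signal.

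The Sup signal of E2f1 showed no such separation. It ran from 439 to 601 with a median of 507 on the OGD/R array, against 511 to 670 with a median of 590 on the control array, so the spots of the arrays overlapped. The scaled log2 difference was -0.14 with a spot SD of 0.19. Its sign depended on the scaling, as it was 0.18 when scaled on the spike-in probes. That scale moved the median Sup difference of all RNAs measured in both channels by 0.31 and their median IP difference by -0.0023.

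Bambi also had a higher IP signal after OGD/R, with smaller spot SDs of the differences. Its IP signal ran from 60500.2 to 65602 with a median of 62950.0 over 9 spots on the OGD/R array, against 31383 to 33015 with a median of 32401 over 8 spots on the control array. The spots were again fully separated, and the scaled log2 IP difference was 1.11 with a spot SD of 0.05, or 2.16-fold. The Bambi Sup signal ran from 5108 to 5700.0 with a median of 5446 on the OGD/R array, against 4997 to 5257 with a median of 5128 on the control array. Unscaled, these Sup ranges overlap. After scaling they did not, and the log2 Sup difference was 0.15 with a spot SD of 0.05, or 1.11-fold. Scaled on the spike-in probes, it was 0.46.

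**Figure D1:**
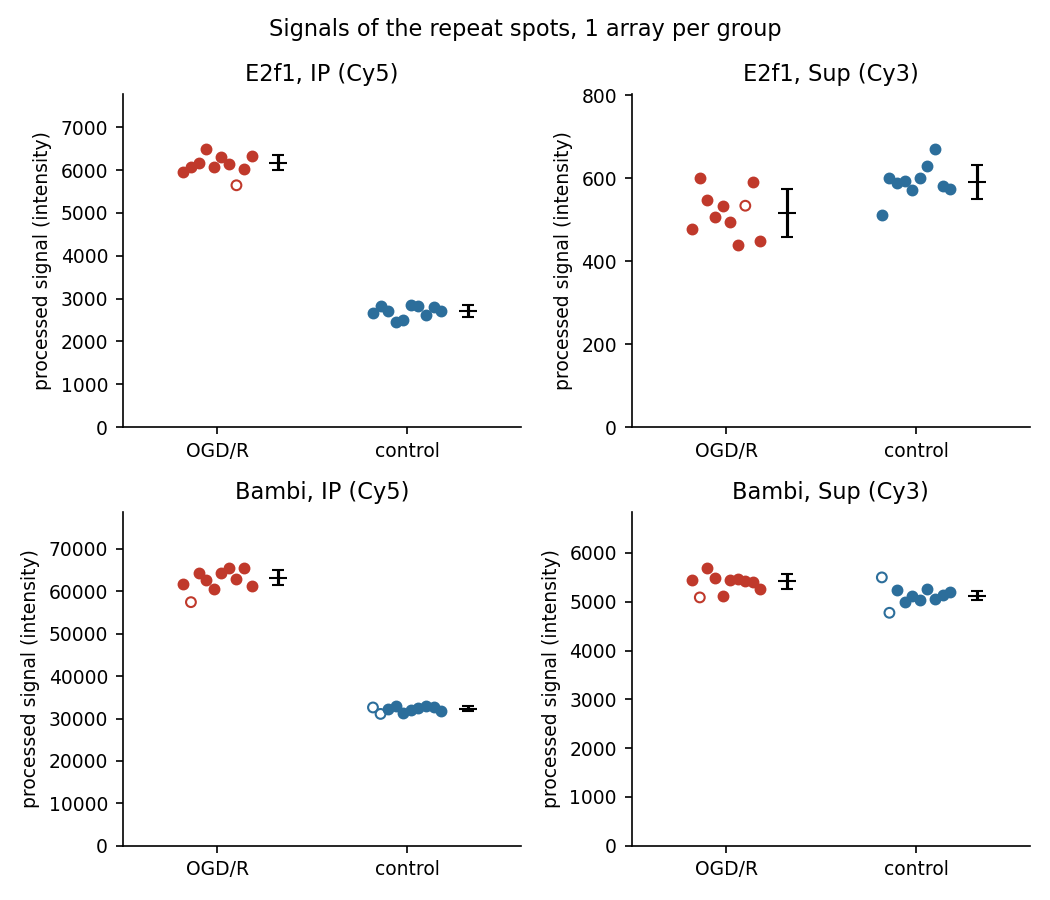
Processed signal (intensity, linear axes from 0) of every repeat spot of E2f1 and Bambi in the IP and Sup channels, OGD/R at left and control at right of each panel; filled points are retained spots, open points are spots the scanner marked as outliers, and the black bar is the mean with the SD over retained spots. The IP spots of the arrays are far apart for both genes (medians 6142 and 2711 for E2f1, 62950.0 and 32401 for Bambi), whereas the Sup spots lie close together.

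The balance of IP to Sup was accordingly higher in OGD/R for both genes. Centred on the array median over RNAs, the log2 IP/Sup of E2f1 was 3.89 ± 0.18 on the OGD/R array and 2.47 ± 0.12 on the control array (SD, n = 9 and 10 spots). The difference was 1.42 with a spot SD of 0.21, a 2.68-fold higher ratio. For Bambi the centred log2 ratio was 3.85 ± 0.04 on the OGD/R array and 2.94 ± 0.04 on the control array (SD, n = 9 and 8 spots). The difference was 0.91 with a spot SD of 0.05, a 1.88-fold higher ratio, which falls short of 2-fold. For neither gene did the ratio spots overlap between the arrays.

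Expressed as a share of the summed signal, IP made up 92.3% ± 0.89 of E2f1 on the OGD/R array and 82.0% ± 1.23 on the control array. For Bambi the shares were 92.1% ± 0.18 on the OGD/R array and 86.3% ± 0.33 on the control array. These shares are on the dye-normalized scale, so their height depends on how the dyes were balanced. Before dye normalization, the IP share of E2f1 was 88.5% in OGD/R and 73.0% in control, and that of Bambi 86.1% in OGD/R and 78.5% in control. In both genes and on both scales the share was higher in OGD/R.

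The sum of the channels, which stands in for the total amount of probe-bound RNA, followed the IP channel because IP held most of the signal. The scaled log2 total was higher in OGD/R by 1.11 for E2f1, with a spot SD of 0.08, and by 0.96 for Bambi, with a spot SD of 0.05. Whether a larger captured fraction or a larger amount of RNA lay behind these sums was not tested. The scaling takes out a change shared by all RNAs of an array, and over the 4909 RNAs measured in both channels the median total difference was -0.03. The totals are therefore relative to the other RNAs, and amounts per cell were not measured.

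The genes differed from each other in the ratio more than in the IP signal. E2f1 minus Bambi, the log2 differences were apart by 0.51 in the ratio, 0.23 in IP and -0.28 in Sup. In all 15 alternative settings tried, the ratio difference was larger for E2f1, by 0.12 to 0.75. The IP difference was larger for E2f1 in 13 of them and for Bambi in 2, which were both settings with normexp background correction and an offset of 50.

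Spots at the same position on both arrays were also compared, since each position is printed with the same probe. E2f1 had 9 positions retained on both arrays, and the IP difference there ran from 1.24 to 1.54, above 0 at all 9. The Sup difference of E2f1 was below 0 at 7 positions and above 0 at 2, from -0.46 to 0.09. Its ratio difference therefore varied with position from 1.10 to 1.66. Bambi had 8 such positions, with IP differences from 1.07 to 1.16, Sup differences from 0.06 to 0.20 and ratio differences from 0.82 to 0.98. The position ranges of the ratio difference did not overlap between the genes.

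**Figure D2:**
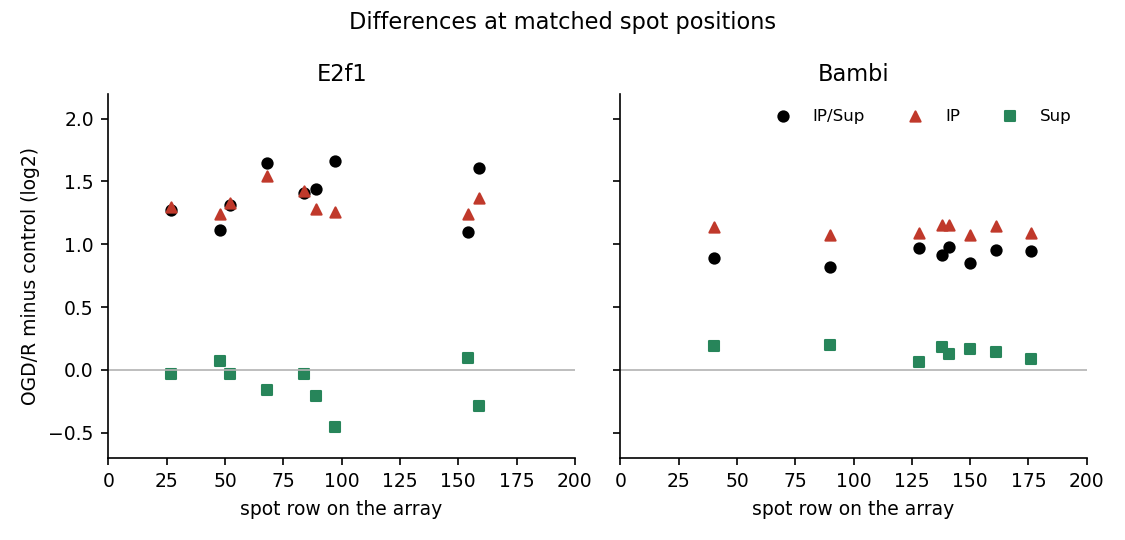
Log2 difference of OGD/R minus control at each spot position retained on both arrays, plotted against the spot's row on the array, for the IP/Sup ratio (circles), IP (triangles) and Sup (squares). IP lies between 1.24 and 1.54 for E2f1 and between 1.07 and 1.16 for Bambi wherever the spot sits, and the E2f1 Sup values spread from -0.46 to 0.09.

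The wider scatter of the E2f1 ratio came with a weak Sup signal. In scanner counts before any dye normalization, the median pixel of an E2f1 Sup spot stood 34 above its local background on the OGD/R array and 33.5 on the control array. The corresponding IP values were 171 on the OGD/R array and 72.0 on the control array. For Bambi the Sup values were 267 in OGD/R and 238 in control, and the IP values 1618 in OGD/R and 831 in control. The higher IP level was thus present in the pixels themselves, 2.37 times the control value for E2f1 and 1.95 times for Bambi, whereas the Sup pixels stood at 1.01 and 1.12 times the control value in the same order. After the scanner's background subtraction the median E2f1 Sup signal was 22.1 in OGD/R and 25.9 in control, or 0.85 times the control value. For Bambi Sup that value was 1.15 times. The median E2f1 Sup level was thus lower in OGD/R in the scanner's subtracted signal but not in the pixels over local background. As a mean over spots, the E2f1 Sup pixel before any subtraction was 44.5 in OGD/R and 46.05 in control. Which step the lower level came from was not tested.

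On each array, the scanner called all 10 spots of each probe well above background in IP and in Sup. The lowest Sup signal that the scanner called well above background was 112 on the OGD/R array and 113 on the control array, below the dimmest E2f1 Sup spots of 439 and 511 on those arrays. The scanner's own error estimate was about 10% of the signal in IP for both genes and up to 11.3% for the Sup signal of E2f1. The coefficient of variation over repeat spots of the E2f1 Sup signal was 11.2% on the OGD/R array and 6.92% on the control array. For its IP signal it was 2.76% on the OGD/R array and 5.25% on the control array. The scanner marked 1 E2f1 spot on the OGD/R array, 1 Bambi spot on the OGD/R array and 2 Bambi spots on the control array as outliers. With these kept, the ratio differences were 1.40 for E2f1 and 0.91 for Bambi.

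**Figure D3:**
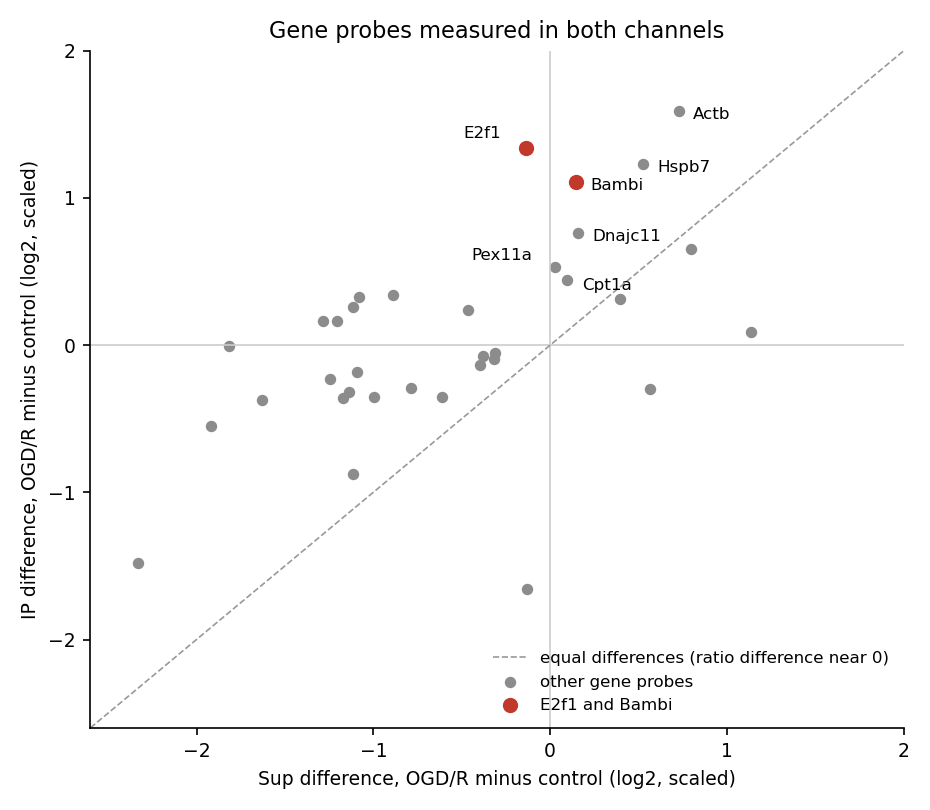
Scaled log2 difference of OGD/R minus control in IP (vertical) against that in Sup (horizontal) for the 34 gene probes with IP and Sup measured on each array; red points are E2f1 and Bambi, and the dashed line marks equal differences in both channels. Most gene probes lie left of 0 with lower Sup, whereas E2f1 (1.34 in IP, -0.14 in Sup) and Bambi (1.11, 0.15) lie high above 0 in IP and near 0 in Sup.

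Among the 34 gene probes whose IP and Sup were both measured on each array, E2f1 had the second largest IP difference after Actb, and Bambi the fourth after Hspb7. By ratio difference E2f1 ranked 2 and Bambi 11 of 34. An IP signal at least 2-fold higher in OGD/R was found in 4 of these gene probes (11.8%) and in 71 of all 5370 RNAs measured in IP (1.32%). A ratio at least 2-fold higher was found in 9 of the 34 (26.5%), with E2f1 and without Bambi. Among the 7470 RNAs with 1 or both channels measured on each array, it was found in 319 (4.27%). A total signal at least 2-fold higher was found in 3 of the 34 (8.82%) and in 93 of the 7470 (1.24%), again with E2f1 and without Bambi. The 5370 and 7470 RNAs passed looser filters than the 34 gene probes and mostly have 1 spot per probe. The shares are therefore not like for like. Both genes were chosen on these same signals, so their place in these counts is a description.

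Full separation of the repeat spots was common among gene probes. The IP spots of OGD/R were all above those of control in 14 of 34 (41.2%), and the ratio spots in 25 of 34 (73.5%). The Sup spots overlapped in 7 of 34 (20.6%), E2f1 among them.

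The gene probes as a set had a different arrangement. Their median IP difference was -0.03 and their median Sup difference -0.54, against 0.03 and -0.05 over the 4909 RNAs measured in both channels. Of the 29 gene probes with a higher ratio in OGD/R, the Sup signal differed more than the IP signal in 22, and the IP signal more in 7. These 7 were E2f1, Bambi, Actb, Hspb7, Dnajc11, Pex11a and Cpt1a. Of the 7, the 4 with an IP difference of at least 2-fold were E2f1, Bambi, Actb and Hspb7, and the Sup differences of Actb (0.73) and Hspb7 (0.53) were higher than those of E2f1 and Bambi. Over the 4909 RNAs, 10 had an IP difference at least as high as that of E2f1, itself included, and E2f1 was the 1 whose Sup difference was no further from 0 than its own. For Bambi the counts were 32 and 4, of which 2 were small-RNA probes and 2 gene probes, E2f1 and Bambi. These counts were chosen after the values were seen, and their cut-offs are each gene's own IP and Sup differences. Since both genes were selected for those differences, the counts restate the selection and do not measure how rare it is. The E2f1 Sup cut-off also depends on the scaling, as its Sup difference was 0.18 or 0.30 on the spike-in references.

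The 36 spike-in probes with both channels measured, taken as spike-ins from their identifiers, had IP differences from -1.76 to 0.51. Of these, 0 were as high as either gene, but the lowest lay further from 0 than the 1.34 of E2f1 and the 1.11 of Bambi. The median ratio difference of the spike-in probes was 0.20, in the same direction as those of E2f1 and Bambi. Set against it, the ratio differences became 1.21 for E2f1 and 0.71 for Bambi. With the spike-in reference taken as the difference of the arrays' medians, the ratio difference was 0.97 for E2f1, short of 2-fold, and 0.46 for Bambi.

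Because both genes were chosen for their IP and Sup differences, their closeness to each other in these values was set by that choice. Likeness to each gene was measured as the distance between pairs of scaled IP and Sup differences, over 1 array per condition and the 33 gene probes that had a symbol and were measured in both channels. The gene nearest to E2f1 was Bambi at a distance of 0.36, against a median distance of 1.54 over the 32 others. Next to E2f1 came Dnajc11, which encodes a mitochondrial J-domain protein, at 0.64, and Hspb7, of the small heat shock proteins, at 0.67. For Bambi the nearest was Dnajc11 at 0.35, then E2f1 at 0.36 and Hspb7 at 0.40, against a median of 1.46. Dnajc11 differed by 0.76 in IP and by 0.16 in Sup, a similar arrangement at less than 2-fold.

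The genes nearest in ratio on the control array varied in how they differed. Nearest to E2f1 in centred log2 IP/Sup on that array were Duox1, Tm9sf1 and Olfr1307, whose IP differences ran from -0.18 to 0.16. The ratio difference of Tm9sf1 was 1.32, close to that of E2f1, with a Sup difference of -1.21. Nearest to Bambi were Pex11a, a peroxisomal membrane protein gene, Alkbh4 and Lhfp. Pex11a differed by 0.53 in IP and by 0.03 in Sup, while Alkbh4 and Lhfp had lower IP and lower Sup in OGD/R, with IP differences of -0.36 and -0.35. The ratio difference of Alkbh4 was 0.76 and that of Lhfp 0.21.

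**Figure D4:**
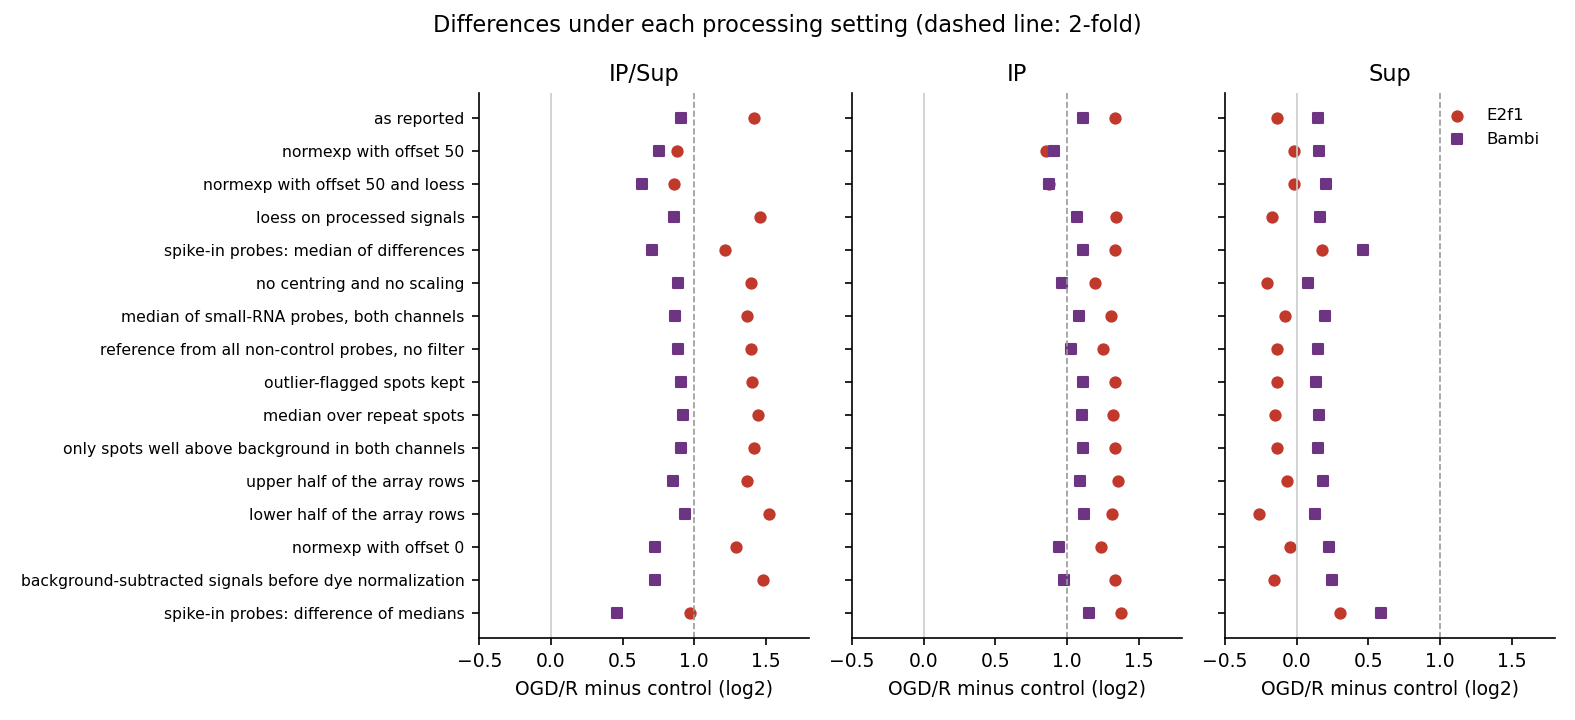
Log2 difference of OGD/R minus control for E2f1 (circles) and Bambi (squares) in the IP/Sup ratio, IP and Sup, under the reported setting and 15 alternatives; the dashed line marks 2-fold. All ratio and IP values lie above 0, Bambi's ratio stays left of the dashed line throughout, and the E2f1 Sup value is above 0 only under the settings that use spike-in probes.

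The size of the differences varied more with the background correction and the reference than with the choice of spots, over which the ratio difference ran from 1.37 to 1.52 for E2f1 and from 0.85 to 0.94 for Bambi. In all 15 alternatives the ratio and the IP signal were higher in OGD/R for both genes. The Bambi Sup signal was also higher in all 15, by 0.08 to 0.59, whereas E2f1 Sup was lower in 13 and higher in 2. The E2f1 ratio difference ran from 0.86 to 1.52 and was at least 2-fold in 12 of the 15 alternatives. The Bambi ratio difference ran from 0.46 to 0.94 and was at least 2-fold in 0 of them. The IP difference was at least 2-fold in 13 alternatives for E2f1 and in 10 for Bambi. With normexp and an offset of 50, which adds 50 to every background-corrected signal, the E2f1 ratio difference was 0.88, and with an offset of 0 it was 1.29. For Bambi these values were 0.75 and 0.72.

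The array holds little else of the pathways these genes belong to. Of 45 genes in a list of E2F factors, their partners and cell cycle targets, the 1 with a probe was E2f1. Of 41 genes in a list for TGF-beta, BMP and Wnt signalling, the 1 with a probe was Bambi. Partners, inhibitors and targets of either gene could therefore not be followed. The cell type comes from the sample titles, and equally few probes bear on it: of 11 microglial markers only Apoe had one, with IP and Sup well above background on each array. Of 5 neuronal, 4 astrocytic and 2 endothelial markers 0 had a probe. Of 4 oligodendrocyte markers Mbp had one, whose IP signal was well above background on each array and whose Sup signal was not on either.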

How the data were processed

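The intensity values came from the deposited scanner files, 1 per array, of 15742 spots each. Per the file headers, Agilent Feature Extraction 11.0.1.1 had subtracted background, detrended and dye-normalized (linear and lowess) each processed signal within its array. The extraction protocol was the same for both arrays. The deposited log10 ratio equals that of the processed signals. The authors' log2 table holds 5702 small-RNA probes and 0 gene probes, so it gave no value here. The sources used here do not state how it was normalized.

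Spots marked as outliers were left out (83 in OGD/R, 57 in control, all probes), as were control spots; 0 spots were saturated. Each probe's log2 value is the mean over its spots. A channel counted as measured for a probe if 50% or more of the spots were well above background. Log2 IP/Sup had the array's median subtracted, taken over RNAs with 1 or both channels measured on each array, and no loess was used. IP was scaled by the 75th percentile over probes measured in IP, Sup over all non-control probes, and the sum of channels over the centring set. The spot SD of a difference combines the spot SDs of both arrays. The threshold for size was 2-fold. Normexp and loess came from limma 3.58.1 in R 4.3.3, and the rest from Python 3.11.15. The computation was tested on simulated data. Accessions gave symbols to 46 of 50 gene probes through a RefSeq table, and no coordinates were used.

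The members, gene lists and rules were chosen with earlier results of these data known. Named genes were the members, for each the 3 nearest gene probes by IP and Sup difference and the 3 nearest by control ratio, and genes of the fixed lists. Actb and Cpt1a were named after their values were seen. There were 12 alternatives listed beforehand and 3 added after seeing the data: normexp with an offset of 0, signals before dye normalization, and the spike-in reference as a difference of medians. The number of arrays limits the precision.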

Additional observations from a re-analysis of the deposited data

How the results depend on the processing

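Values below are OGD/R minus control on the log2 scale, or percentage points for the IP share, and only those that moved by more than the spot SD are given. No value at least 2-fold changed sign. With normexp and an offset of 50, E2f1 had 0.88 in ratio, 0.85 in IP, 0.59 in total and 13.4 in share, and Bambi 0.75, 0.91, 0.78 and 8.46. With loess added, E2f1 had 0.86, 0.87, 0.62 and 11.8, and Bambi 0.63 in ratio, 0.87 in IP, 0.21 in Sup and 0.76 in total. Loess on the processed signals gave a Bambi share difference of 5.16. With the spike-in probes as the reference (median of differences), E2f1 had 0.18 in Sup and 1.20 in total, and Bambi 0.71 in ratio, 0.46 in Sup and 1.05 in total. Without centring or scaling, E2f1 had 1.19 in IP and 1.02 in total, and Bambi 0.97 in IP, 0.079 in Sup and 0.87 in total. With the median of small-RNA probes as the reference Bambi had 0.20 in Sup, with no filter on the reference 1.02 in IP, and on rows 1 to 96 of the array 0.85 in ratio. Of the alternatives chosen after seeing the data, normexp with an offset of 0 gave E2f1 1.24 in IP, 1.01 in total and 15.0 in share, and Bambi 0.72 in ratio, 0.95 in IP, 0.23 in Sup, 0.86 in total and 7.89 in share. Signals before dye normalization gave E2f1 a share difference of 15.6, and Bambi 0.73 in ratio, 0.98 in IP, 0.25 in Sup, 0.89 in total and 7.63 in share. The spike-in reference as a difference of medians gave E2f1 0.97 in ratio, 0.30 in Sup and 0.94 in total, and Bambi 0.46 in ratio, 0.59 in Sup and 0.79 in total. The cause of these moves was not tested.

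The selection of spots changed less. With outlier spots kept, with medians over spots and with the rows after 96 alone, every value of both genes stayed within the spot SD, and the restriction to spots well above background changed nothing, since all were. No paired analysis was possible because each group has 1 array. The number of arrays, and for E2f1 the weak Sup signal over background, limit what these differences can show. Dye normalization within each array leaves an array-wide change of IP/Sup unreadable.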
